A study of Mus musculus with 2 samples.

Results

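Postn-high periosteal osteoblast precursors were examined in single-cell transcriptomes of the mouse femur, in which 337 of 8553 barcodes with 200 or more detected genes met the definition. The cells were selected on measured values: at least 0.2% of a barcode's unique molecular identifiers (UMIs, 1 per captured mRNA molecule) had to be Postn, with at least 1 UMI of Tnn, Ostn or Runx2. Barcodes with a UMI of Chodl, with Bglap at 0.5% or more, Col2a1 at 1% or more, or the 4 adult haemoglobin genes at 10% or more were left out. The untreated library gave 200 precursors of 4633 barcodes, and the library of calcitriol-injected mice gave 137 of 3920.

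Both groups were wild-type C57BL/6J mice at 7 weeks of age. The methods of the study give them as male. One group received calcitriol, the hormonal form of vitamin D, by daily intravenous injection, and its femurs were taken a day after the last injection. The other group was untreated, with no vehicle injection stated for it, so the injection itself differs between the groups along with the hormone. Femurs of a group were pooled, the ends were cut off, the marrow was flushed, and the bone was crushed. Cells released by the first rounds of collagenase were thrown away, and those freed afterwards by EGTA and more collagenase were depleted of CD45-positive leukocytes. One droplet library (10x Chromium, 3′ ends of transcripts) was made per group, so the cells are not replicates and no difference between the groups has a replicate check. No p-value is given for this reason, and intervals are 95% limits for counting error only.

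The periosteum is the fibrous sheath of bone, and its inner layer holds mesenchymal cells that lay down new bone on the outer surface and repair fractures. Periostin (Postn) and tenascin-W (Tnn) are matrix proteins of periosteum and of other load-bearing connective tissue, and osteocrin (Ostn) is a secreted ligand of the natriuretic peptide clearance receptor made by young osteoblasts. Calcitriol binds the vitamin D receptor (VDR), a nuclear receptor that pairs with retinoid X receptors on DNA, and its actions on osteoblast-lineage cells are known to include induction of Spp1, Tnfsf11 and Cyp24a1.

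The precursors were deeply sequenced and alike in depth. They held 3302420 UMIs in the untreated library, where the median cell held 15753.5 UMIs from 3664 genes. The calcitriol library gave 2465219 UMIs in precursors, and its median cell held 16443 UMIs from 3481 genes. The median mitochondrial share was 3.26% in both. The whole libraries differed in red cell content: haemoglobin took 41.2% of all UMIs in the untreated library and 10.6% in the calcitriol library. Among the precursors the median haemoglobin share was 0.106% and 0.0243%. Precursors were 4.32% (Clopper-Pearson interval 3.75 to 4.94) and 3.49% (2.94 to 4.12) of barcodes with 200 or more genes. Of barcodes with haemoglobin under 10%, they were 8.93% and 3.96%. Their share thus depended on the denominator, and the cell isolation can set it. The libraries shared 8 barcodes, and no barcode was a precursor in both.

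All 5 marker genes given for these cells were present. Level is given throughout as counts per 1000000 (CPM), the UMIs of a gene per 1000000 UMIs summed over the precursors of a library. Postn stood at 10197 CPM in untreated and 6829 CPM in calcitriol precursors, and the median cell held 7774 and 4958 CPM. The barcodes nearest to the limit of 0.2% held 0.203% and 0.205% Postn inside it and 0.199% and 0.198% outside it. For Bglap, the nearest barcodes held 0.471% and 0.439% inside the limit, and 0.501% and 0.509% outside it. Tnn was found in 95.5% of untreated and 91.2% of calcitriol precursors, Runx2 in 69.0% and 84.7%, and Ostn in 57.5% and 30.7%. Since Postn, Tnn, Ostn, Runx2 and Bglap served to select the cells, their differences between the libraries are a description. Asporin (Aspn), a small proteoglycan that binds collagen, had a UMI in 95% and 95.6% of the cells, and collagenase 3 (Mmp13) in 72.5% and 92.7%. Aspn and Mmp13 were not used to select the cells. They are among the 5 given markers, and the precursors were defined with earlier results of these data known. Their presence is therefore a description and not an independent check of what the cells are.

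The files do not record where in the bone a cell lay, so the periosteal position rests on these markers. Cells of the discarded first digests were not analysed here. Other genes of the osteoblast lineage were present. Alpl, the alkaline phosphatase of mineralizing cells, stood at 543 CPM in untreated and 465 CPM in calcitriol precursors, and Sp7, the transcription factor osterix, at 48.4 and 42.2 CPM. Defining markers of osteocytes were at 0 or few UMIs: Sost had 0 UMIs in both libraries, Dmp1 had 4 and 34, Phex 0 and 6, and Mepe 3 and 1. Fgf23 had 0 UMIs in untreated precursors and 12 UMIs in calcitriol precursors, all in 1.46% of the cells. Dmp1 had a log2 ratio of 3.51 (2.02 to 5.47), with a UMI in 1.5% and 8.03% of the cells. The whole list of 10 osteocyte genes, led by Capg, summed to 137 and 193 CPM. Markers of leukocytes summed to 12.4 and 11.8 CPM with Ptprc at 0, and those of endothelium to 54.8 and 23.1 CPM. A UMI of Mki67, a gene of dividing cells, was found in 3.50% and 5.11% of cells, which sets no limit on the share that was dividing. Tendon markers were present and summed to 2324 and 1875 CPM, beside 1244 and 2366 CPM in Bglap-high osteoblasts and 2281 and 2524 CPM in fibroblasts. Most of the sum was fibromodulin (Fmod), at 1818 and 1596 CPM in 94% and 88.3% of precursors. Mstn was at 0, and Chodl was at 0 because the selection required it.

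**Figure D1:**
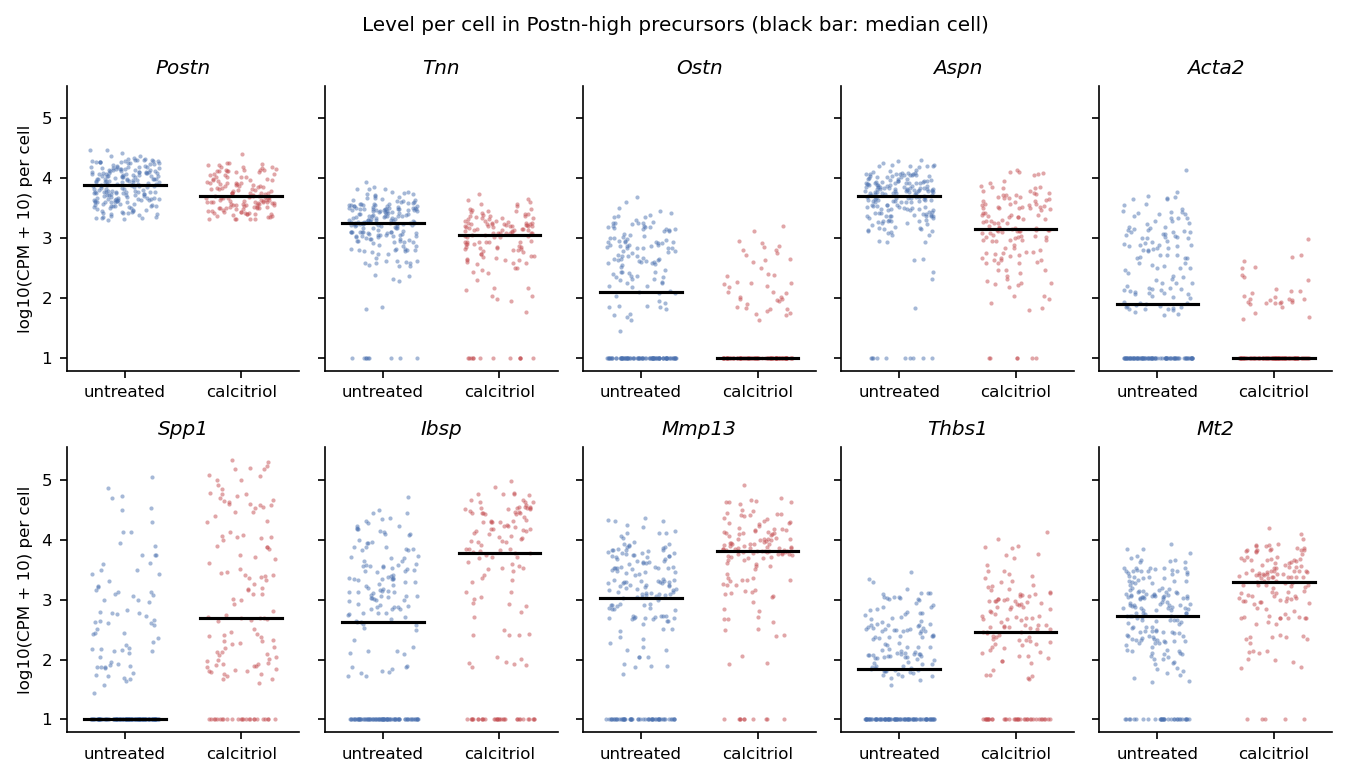
Levels of 10 genes in single precursors, as log10(CPM + 10) on the vertical axis, for 200 untreated and 137 calcitriol cells; each point is 1 cell and the black bar is the median cell. Postn, Tnn and Ostn served to select the cells; Ibsp rose from a median cell of 419 CPM to 5999 CPM, and the median cell for Spp1 went from 0 to 487 CPM.

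The calcitriol library was compared with the untreated library for the 7792 genes with at least 50 UMIs in the precursors of both together. A ratio of CPM of 2-fold or more was taken as a rise or a fall. By this limit 198 genes rose, which is 2.54% of the genes, and 350 genes fell, which is 4.49%. The median log2 ratio of all genes was -0.17, so that an average gene stood slightly lower in the calcitriol precursors. Relative to that median, 293 genes were 2-fold or more higher and 200 lower, and the balance of rises and falls is therefore set by the scaling. Ratios below are uncentred and can be read against -0.17.

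**Figure D2:**
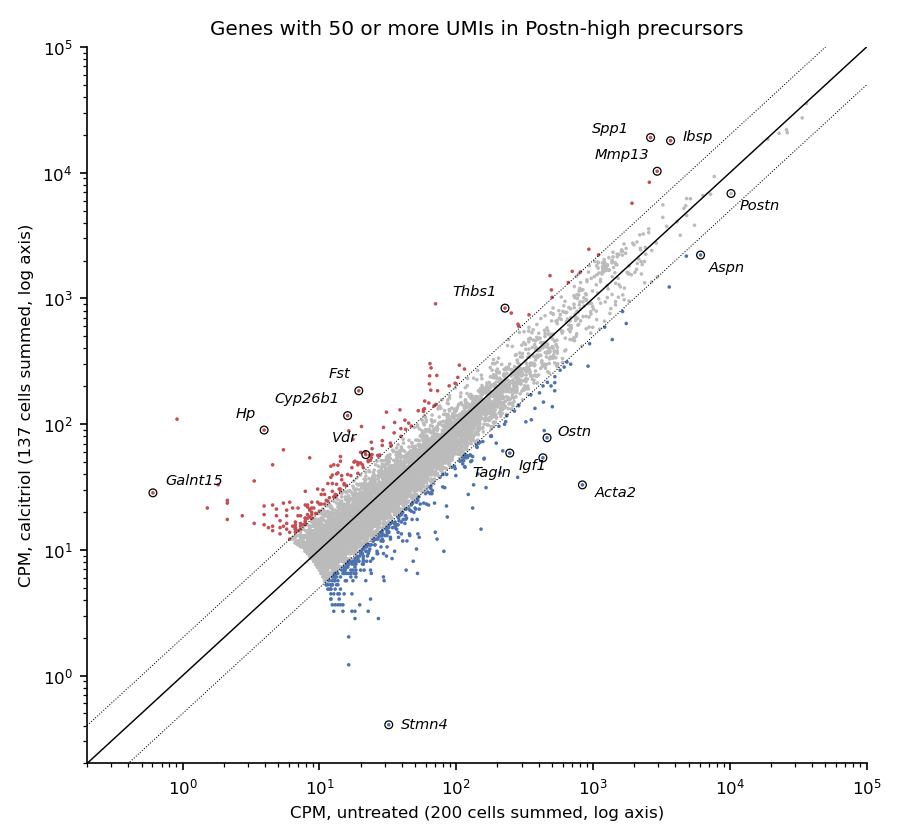
Level of each gene in calcitriol precursors (vertical axis, CPM, log scale) against untreated precursors (horizontal axis, CPM, log scale); the solid line marks equality and dotted lines a 2-fold difference, and genes at 0 in a library are not drawn. Red points mark the 198 genes that rose and blue points the 350 that fell, less those at 0, with named genes circled.

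Among genes above 1000 CPM in untreated precursors, the largest rises were those of Spp1, Ibsp and Mmp13, 3 secreted proteins of bone formation and remodelling. Osteopontin (Spp1, chr5:104435118-104441050, GRCm38) is an acidic phosphoprotein of bone matrix that binds calcium and integrins. Its level was 2634 CPM in untreated and 19052 CPM in calcitriol precursors, a log2 ratio of 2.85 (2.82 to 2.89). The rise came with strong inequality among cells. The upper quartile was 171 CPM in untreated cells and 11195 CPM in calcitriol cells, and the highest cell held 109574 and 208866 CPM. Cells above 10000 CPM made up 4.5% of untreated and 27.0% of calcitriol precursors. Without the cell richest in the gene in each library, the log2 ratio was 3.01.

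The Spp1 UMIs in barcodes of other cell types also differed between the libraries. In haemoglobin-rich barcodes, in which red cell transcripts make up at least 50% of the UMIs, the gene was found in 14.7% of 1922 untreated and 45.2% of 378 calcitriol barcodes. Whether red cells make some Spp1 themselves was not tested. Median depth there was 10479.5 and 10323.5 UMIs. The mean was 0.202 and 3.02 UMIs per barcode, against 43.5 and 343 UMIs per precursor. Endothelial barcodes, by 3 of 4 markers, held 2.69 and 36.3 UMIs on average, with a UMI in 18.1% and 48.2% of them. The share of precursors with a single UMI or more, 37.5% and 81.8%, is thus read against that background. The share with 5 or more UMIs was 21% and 53.3% in precursors, and 0.0520% and 1.06% in haemoglobin-rich barcodes. It was 2.07% and 2.63% in endothelial barcodes, so that few of these held most of the UMIs behind their means. The part of free RNA in the precursors' values of Spp1 was not tested.

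Bone sialoprotein (Ibsp, chr5:104299171-104311469) nucleates hydroxyapatite and lies in the same gene cluster as Spp1. Its level was 3687 CPM in untreated and 17974 CPM in calcitriol precursors, a log2 ratio of 2.29 (2.26 to 2.31). Cells above 10000 CPM made up 9% and 40.9%. A UMI of Ibsp was found in 60.5% and 76.6% of precursors, and in 4.27% and 10.3% of haemoglobin-rich barcodes. The 2 sialoproteins were thus high in a part of the calcitriol cells and not in all of them. Of the osteocyte markers given above, Dmp1, Phex and Fgf23 also had more UMIs in the calcitriol precursors, while Mepe had fewer and Sost had 0 in both. Of the 10 osteocyte genes only 3 had enough UMIs to be compared, of which 1 rose and none fell. The part of osteocyte markers in the rises of Spp1 and Ibsp was not tested.

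Collagenase 3 (Mmp13, chr9:7272514-7283331) cleaves fibrillar collagen and is made by osteoblasts and hypertrophic chondrocytes. It stood at 2941 CPM in untreated and 10268 CPM in calcitriol precursors, a log2 ratio of 1.80 (1.77 to 1.84). The median cell held 1052 and 6558 CPM, and the quartiles were 0 and 3393 CPM in untreated cells and 2044 and 12647 CPM in calcitriol cells. The lower quartile, the median and the upper quartile of Mmp13 were thus all higher in the calcitriol library. Haemoglobin-rich barcodes held 0.0427 and 0.0423 UMIs of Mmp13 on average. Endothelial barcodes, by 3 of 4 markers, held 0.0881 and 1.73 UMIs, with a UMI in 3.11% and 6.58% of them, against 48.6 and 185 UMIs per precursor. The share with 5 or more UMIs was 0.518% and 1.32% in endothelial barcodes, and 62.0% and 86.1% in precursors. Few of the calcitriol endothelial barcodes thus held most of the UMIs behind their mean. The part of free RNA in the precursors' values was not tested.

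The promoters of Mmp13 and Spp1 are shown because both genes rose and both hold the core motif bound by Runx factors, one of which, Runx2, was among the genes that selected the cells. Each sequence is that of RefSeq on GRCm38.p6, plus strand, from 250 bases before to 50 bases after the start site, and capitals mark the motif TGTGGT or its reverse complement. The Mmp13 window is chr9:7272264-7272563, with the motif 118 bases before the start, and the Spp1 window is chr5:104434861-104435160, with the motif 128 bases before it.
Mmp13: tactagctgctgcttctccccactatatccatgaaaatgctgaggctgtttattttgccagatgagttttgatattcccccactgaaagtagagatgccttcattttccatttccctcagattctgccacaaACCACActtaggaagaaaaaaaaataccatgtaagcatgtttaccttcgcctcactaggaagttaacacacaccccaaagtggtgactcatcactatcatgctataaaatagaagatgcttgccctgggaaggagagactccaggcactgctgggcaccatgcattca
Spp1: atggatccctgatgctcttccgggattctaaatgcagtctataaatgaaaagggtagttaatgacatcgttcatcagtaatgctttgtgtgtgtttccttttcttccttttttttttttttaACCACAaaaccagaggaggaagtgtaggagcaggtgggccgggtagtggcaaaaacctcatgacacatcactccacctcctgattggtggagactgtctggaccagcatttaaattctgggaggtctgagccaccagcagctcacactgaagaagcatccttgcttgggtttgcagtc

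The motif occurred on either strand in 16.8% of 32851 promoters of this length. Of the 33 genes ranked by change or used as markers, 23 matched the table with 28 promoters, of which 6 held it, those of Mmp13, Spp1, Abca8a, Tspan2, Emid1 and Runx2. The direct repeat with 3 bases between its half-sites (DR3), the type of element bound by VDR and searched in 8 variants of the half-site on both strands, was found in 0.256% of all promoters and in none of the 28. This says only that these letters are not in these windows, which are short beside the distances at which such elements are known to lie.

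The largest ratios in either direction were ranked over 7716 genes. To be ranked, a gene had to be found in 10% or more of untreated or of calcitriol precursors, and genes that owed over 25% of their UMIs to 1 cell were set aside. Among the 12 that rose most, Galnt15, which codes for a transferase that starts O-linked glycans, went from 0.606 to 28.4 CPM, with 2 UMIs in untreated and 70 UMIs in calcitriol precursors. Its log2 ratio was 5.55 (3.64 to 8.62), and 18.2% of the calcitriol precursors held a UMI. Without cells carrying markers of another cell type the ratio was 3.95, which rests on at most the 2 untreated UMIs and may be a lower bound. With cells thinned to 5000 UMIs each, untreated precursors held 0 UMIs of Galnt15. The value of 2.83 there is a lower bound, set by a floor of 3 counts. Endothelial barcodes held more of it, in 42.5% of untreated and 59.6% of calcitriol barcodes at median depths of 8937 and 9950 UMIs, and it had a log2 ratio of 1.28 there. Haptoglobin (Hp), which binds free haemoglobin, went from 3.94 to 89.6 CPM, and Klhl33, a gene of the kelch-like family, from 5.45 to 62.5 CPM. Hp was present in 29.9% of calcitriol precursors and in 0 of 378 haemoglobin-rich calcitriol barcodes, which allows a share of up to 0.794%, and it was found in 3.95% of endothelial calcitriol barcodes.

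A regulator of activin signals and an enzyme of vitamin A breakdown were among the same 12. Follistatin (Fst), a secreted antagonist of activins, was found at 19.4 CPM in 16% of untreated precursors and at 184 CPM in 55.5% of calcitriol precursors, a log2 ratio of 3.25 (2.87 to 3.65). Cyp26b1, which degrades retinoic acid, had 16 and 117 CPM, a log2 ratio of 2.86. Agt, the precursor of angiotensin, had 3.33 and 35.3 CPM, with a UMI in 12.4% of calcitriol cells. Abca8a, Xdh (xanthine dehydrogenase), Cytl1, Eepd1 and Rarres1 completed the list, with log2 ratios between 2.67 and 3.83. These 5 genes stood below 10 CPM in untreated precursors, where each was found in 9% of the cells or fewer.

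The largest falls were those of Stmn4 and Acta2. Stmn4, a neuronal-type stathmin that regulates microtubules, had 106 UMIs in 46 untreated precursors and 1 UMI in calcitriol precursors, a log2 ratio of -6.31 (-11.62 to -3.80). Smooth muscle actin (Acta2), also known as a marker of periosteal and other mesenchymal progenitors, stood at 836 CPM in untreated and 32.9 CPM in calcitriol precursors. The log2 ratio was -4.67 (-5.01 to -4.35), and the gene was found in 57.0% and 22.6% of the cells. Transgelin (Tagln), an actin-binding protein, went from 430 to 54.0 CPM. Fhod3, a formin that assembles actin filaments, went from 22.7 to 3.25 CPM.

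The other 8 of the 12 were Ndufa4l2, a hypoxia-responsive mitochondrial protein, the tenogenic gene Tnmd, Plppr5, the microfibril protein Mfap4, the matrix protein Spon2, Emid1, 2700049A03Rik and Tspan2. Spon2 was the most widespread of them, at 281 CPM in 64.0% of untreated cells and 37.7 CPM in 16.8% of calcitriol cells, a log2 ratio of -2.90. The ratio of Plppr5 was 0.63 when cells with markers of another cell type were left out, and -2.78 when smooth muscle markers were not used for this.

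Acta2 and Tagln were the only markers of smooth muscle with enough UMIs to be compared. The 10 smooth muscle and pericyte markers summed to 1270 CPM in untreated and 97.8 CPM in calcitriol precursors, and Acta2 was the most abundant. Myh11, Kcnj8, Abcc9 and Des were at 0 in both libraries, Cnn1 had 3 UMIs and 1 UMI, and Rgs5 had 2 and 5. Leaving out cells with 2 or more markers of another cell type, which counts Acta2 with Tagln, or with over 3 times the median UMIs, left 109 untreated and 115 calcitriol cells. The log2 ratio of Acta2 was then -2.33 and that of Tagln -0.82, which is short of 2-fold, but these genes helped to decide which cells were dropped. With smooth muscle markers not used in that choice, 190 untreated and 131 calcitriol cells were left, and the ratios were -4.62 and -2.8.

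Of 33 genes of periosteal and bone matrix, 1 rose, 11 fell and 21 did neither, with a median log2 ratio of -0.45 beside -0.17 for all genes. This count, like those of the lists that follow, stands beside 2.54% of all genes that rose and 4.49% that fell. Col1a1, the chain of type I collagen with the highest level, had 36371 and 35419 CPM, and Col3a1 had 18983 and 18486 CPM. Aspn, which is counted with the small leucine-rich proteoglycans and not among the 33, was the most abundant of all the genes that fell. It went from 6106 to 2214 CPM, a log2 ratio of -1.46 (-1.51 to -1.42). The median cell held 5014 and 1400 CPM of it. With cells carrying markers of another cell type left out, its ratio was -0.77. Elastin (Eln) fell from 16.4 to 1.22 CPM, Mfap4 from 52.1 to 6.49 CPM and fibrillin 1 (Fbn1) from 42.1 to 16.2 CPM. The elastic fibre proteins Fbln5 and Fbln1 had log2 ratios of 0.81 and 0.60, and Fbln5 had -0.73 with Postn at 0.5% or more. Further falls were those of Col8a1, Col8a2, Col11a2, Col24a1, Vcan, Tgfbi, Cthrc1 and Mfap5, with log2 ratios from -1.63 to -1.08. With Postn at 0.1% or more 6 of the 33 genes fell, and Col11a2, Vcan, Tgfbi, Mfap5 and Fbn1 had ratios from -0.97 to -0.63, while Cthrc1 had -0.69 without cells carrying markers of another cell type. Thrombospondin 1 (Thbs1), a matricellular activator of latent TGF-beta, was the single rise, from 227 to 837 CPM, a log2 ratio of 1.88 (1.76 to 2.0). Fibronectin (Fn1) stood at 1305 and 2107 CPM, short of 2-fold.

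Among 27 genes of collagen processing none rose and 2 fell, the lysyl oxidase Loxl2 at -1.30 and the prolyl hydroxylase subunit P4ha2 at -1.16. Their median of -0.25 lay near the -0.17 of all genes, and Lox, Bmp1, Loxl3 and Tmem38b had ratios from 0.27 to 0.37. The collagen chaperone Serpinh1 lay just within the limit, at 2675 and 1353 CPM, a log2 ratio of -0.98 (-1.04 to -0.93). Among 19 genes of the secretory stress response 5 fell, Asns, Manf, Dnajb11, Pdia6 and Creld2, none rose, and the median was -0.66. Hspa5, the main chaperone of the endoplasmic reticulum, had 1533 and 1023 CPM. Of 18 genes of hypoxia and glycolysis 3 fell, Pgk1, Pfkp and Eno1, and Adm rose, with a median of -0.53. Relative to the median of all genes, only Loxl2, Asns and Pgk1 of these 10 falls were 2-fold or more. Without cells carrying markers of another cell type, the ratios of Asns, P4ha2, Pgk1 and Eno1 were -0.07, -0.33, -0.27 and -0.22, and those of Loxl2, Manf, Dnajb11, Pdia6, Creld2 and Pfkp lay between -0.99 and -0.85. The rise of Adm, at 1.10, was 0.93 in cells with a UMI of Tnn and 0.74 with Postn from 0.2% to 1%. The 10 small leucine-rich proteoglycans, which space collagen fibrils, had a median of 0.00, and Aspn was the only one past 2-fold.

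**Figure D3:**
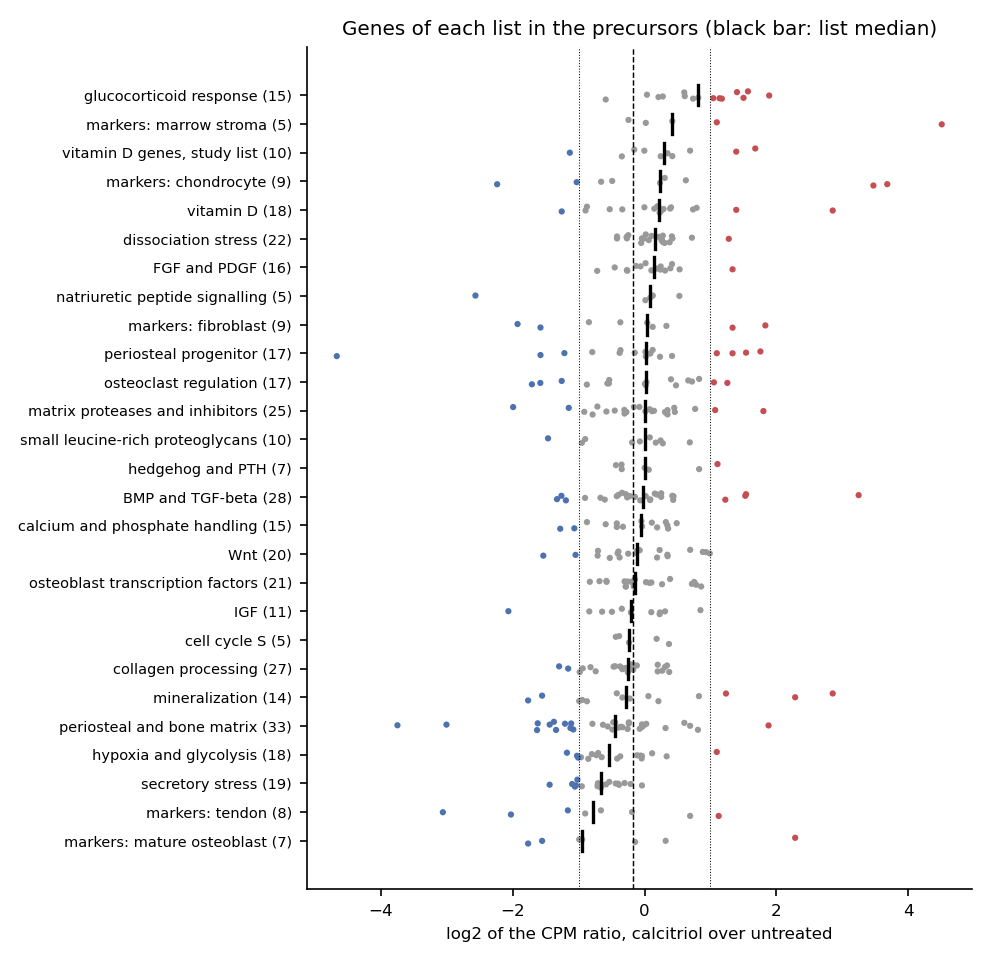
Log2 ratio of CPM, calcitriol over untreated (horizontal axis), of each gene of the gene lists with at least 5 genes compared; the number compared is in parentheses, black bars are list medians, the dashed line is the median of all genes at -0.17, and dotted lines mark 2-fold. The glucocorticoid-response list has the highest median, 0.82; the mature osteoblast markers have -0.95, but they include Bglap, which the selection limited, and its copies Bglap2 and Bglap3, and their summed level was 6050 and 19000 CPM.

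Mineralization genes moved in both directions. Of 14 compared, Spp1, Ibsp and matrix Gla protein (Mgp), an inhibitor of calcification, rose, while Bglap2 and Ifitm5, genes of mature osteoblasts, fell. Mgp went from 496 to 1168 CPM, a log2 ratio of 1.24, or 0.94 without cells carrying markers of another cell type. Bglap2 went from 1381 to 471 CPM, a log2 ratio of -1.55 (-1.65 to -1.46). It is a near-identical copy of Bglap, a gene that the selection limited, so counts between them are uncertain and the limit can bear on both. Ifitm5 stood at only 12.4 and 3.65 CPM, and its log2 ratio of -1.77 was -1.23 without the richest cell of each library. Ank, a pyrophosphate exporter, and Enpp1, which makes pyrophosphate, had log2 ratios of 0.83 and 0.21. No osteoblast transcription factor of 21 compared passed 2-fold in either direction. Some did under other choices: with Postn at 0.5% or more Id3 had 1.07 and Id4 1.52. Without cells carrying markers of another cell type Msx1 had 1.40 and Sox4 -1.02, and relative to the median of all genes Msx1 had 1.03. Runx2 had 116 and 152 CPM, Twist1 336 and 276 CPM, and Mef2c 58.4 and 98.6 CPM.

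In the vitamin D list, 18 of 28 genes had enough UMIs, of which 2 rose and 1 fell. Vdr itself stood at 21.8 CPM in 18.0% of untreated precursors and at 57.2 CPM in 31.4% of calcitriol precursors, a log2 ratio of 1.39 (0.97 to 1.82). The rise of Vdr was short of 2-fold under other choices of cells. The ratio was 0.83 with Postn at 0.5% or more, 0.69 in cells with a UMI of Tnn and 0.64 without cells carrying markers of another cell type. Endothelial barcodes held Vdr in 2.07% and 3.51%. Rxra, a receptor partner, was at 13.0 and 17.0 CPM. Cyp24a1, the hydroxylase that degrades calcitriol, had 0 UMIs in both libraries, which allows up to 3 UMIs in each, or 0.908 and 1.22 CPM. A further list held the vitamin D genes discussed with these libraries by the study, and it is not independent of these data. Of 10 of its genes compared, Sulf2 rose from 29.4 to 94.1 CPM, Vdr rose and the cyclin gene Ccnd2 fell, at -1.13. The study reports Sulf2, Vdr and Ccnd2 as increased, and Fn1 and Igfbp7 as decreased, in osteocytes that expressed Fgf23. Those are other cells. Of these genes, Ccnd2 and Fn1 pointed the other way in the precursors, with Fn1 at 0.69 and Igfbp7 at -0.34. Ccnd2 had -0.99 with Postn at 0.1% or more and -0.96 relative to the median of all genes.

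Signals to osteoclasts were mixed. Tnfsf11, which codes for RANKL, the ligand that drives osteoclast formation, had 87.8 and 116 CPM, a log2 ratio of 0.40 (0.16 to 0.64). Its decoy receptor Tnfrsf11b had 19.4 and 8.11 CPM, a log2 ratio of -1.26, but 1 cell held 36.9% of its UMIs, and without the richest cell of each library the ratio was -0.45. Of 17 genes that regulate osteoclasts, 2 rose, the receptor gene Lifr at 1.26 and Ptger4 at 1.05, and 3 fell. Ptger4 had 0.76 without its richest cells, 0.73 with Postn at 0.1% or more and 0.59 in cells with a UMI of Tnn, and without cells carrying markers of another cell type Ptger4 had 0.30 and Lifr 0.63. Besides Tnfrsf11b these were the chemokines Cxcl1, from 354 to 108 CPM, and Ccl2, from 160 to 53.5 CPM. Both chemokines depended on single cells, since without the richest cell in each library their ratios were -0.99 and -0.93. With Postn at 0.1% or more they were -0.68 for Cxcl1 and 1.10 for Ccl2. Pth1r, the receptor of parathyroid hormone, stood at 237 and 421 CPM.

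Growth factor pathways held changes in both directions. Of 28 genes of BMP and TGF-beta signalling, 4 rose and 3 fell. The BMP antagonist Grem1 rose from 35.4 to 103 CPM, Bmp8a from 7.87 to 22.7 CPM and the co-receptor Tgfbr3 from 39.4 to 92.1 CPM, next to Fst. The activin subunit Inhba fell from 115 to 45.8 CPM, as did Gdf10 and Acvr2a. Some of these were short of 2-fold under other choices: Bmp8a had 0.76 with Postn at 0.5% or more and 0.89 without cells carrying markers of another cell type, Grem1 had 0.91 in cells with a UMI of Tnn, and Inhba had -0.93 with Postn at 0.1% or more. Tgfbr3 had 0.89 by the mean of the cells' own CPM, and Acvr2a had -0.84 with Bglap not limited. Igf1, a growth factor of bone anabolism, fell from 246 to 58.8 CPM, a log2 ratio of -2.07 (-2.33 to -1.81), as the only one of 11 IGF genes. It was found in 48.5% of untreated and 20.4% of calcitriol precursors. Of 20 Wnt genes none rose and 2 fell, Dkk3 at -1.54 and Wnt10b at -1.05. Dkk3 had -0.85 without cells carrying markers of another cell type, and Wnt10b had -0.87 relative to the median of all genes. Pdgfra, a receptor of mesenchymal progenitors, rose from 73.0 to 184 CPM as the only one of 16 FGF and PDGF genes. The hedgehog co-receptor Gas1 rose from 98.1 to 211 CPM, the only one of 7 hedgehog and parathyroid hormone genes. Its log2 ratio of 1.11 was short of 2-fold under 6 alternatives and lowest, at 0.53, without cells carrying markers of another cell type. Of 5 genes of natriuretic peptide signalling only Ostn passed 2-fold, at 461 and 77.9 CPM. Its log2 ratio of -2.56 is a description, since 1 UMI of it could admit a cell.

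Genes used elsewhere to mark periosteal progenitors went in both directions. Of 17 compared, 4 rose and 3 fell, beside 2.54% and 4.49% of all genes, with a median of 0.02. Cd200, a surface glycoprotein of skeletal stem cells, rose from 72.1 to 244 CPM, a log2 ratio of 1.76 (1.54 to 1.98), and its share of cells was 47.0% and 83.9%. Pdgfra, Grem1 and the kit ligand gene Kitl also rose, and Acta2, Thy1 and Cd34 fell. With Postn at 0.1% or more, Kitl had 0.996, Thy1 -0.90 and Cd34 -0.81. A UMI of Cd34 was found in 3% of untreated and 3.65% of calcitriol cells. Ctsk, which marks a periosteal stem cell population, had 741 and 748 CPM, and Prrx1 had 191 and 172 CPM. Scx, a transcription factor of tendon and entheses, fell from 134 to 32.9 CPM, and its ratio was -0.97 with cells bearing markers of another cell type left out. Of 8 tendon markers 1 rose, Angptl7, and 3 fell, among them Mkx at -1.16. For Angptl7 1 cell held 35.6% of the UMIs, and its ratio of 1.13 was 0.90 without the richest cells, 0.31 after thinning and -0.82 without cells carrying markers of another cell type. Mkx had -0.71 with Postn at 0.1% or more.

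Of 15 glucocorticoid-response genes compared, 7 rose and none fell, beside 2.54% and 4.49% of all genes, and the median log2 ratio was 0.82. Among the 8 that did not pass, Klf9 had 0.04, Errfi1 0.21 and Dusp1 0.28. The metallothioneins Mt1 and Mt2, which bind zinc and copper, went from 1927 to 5717 CPM and from 931 to 2462 CPM. Haemoglobin-rich barcodes held 0.219 and 1.87 UMIs of Mt1 and 0.119 and 0.857 of Mt2, against 31.8 and 103 UMIs of Mt1 and 15.4 and 44.3 of Mt2 per precursor. Tsc22d3, which codes for a leucine zipper protein induced by glucocorticoids, went from 283 to 623 CPM, and Fkbp5, Ddit4, Sult1a1 and Pdk4 rose by log2 ratios of 1.04 to 1.89. Only 3 of the 15 rose with Postn from 0.2% to 1%, where Tsc22d3 had 0.94, Mt2 0.99, Ddit4 0.97 and Fkbp5 0.88. Without cells carrying markers of another cell type 4 rose, and Mt2, Ddit4 and Fkbp5 had 0.99, 0.92 and 0.95. The receptor gene Nr3c1 had 124 and 82.3 CPM. Metallothionein rises were not confined to the precursors: Mt2 had a log2 ratio of 1.21 in Bglap-high osteoblasts and 1.30 in fibroblasts. Injection, which is not stated for the untreated mice, cannot be told apart from the hormone here. Of 22 genes known to respond to tissue dissociation, only Nr4a1 rose and none fell, with a median of 0.16 and Fos at 1990 and 2670 CPM. Nr4a1, at 1.28, had 0.64 without cells carrying markers of another cell type and 0.78 with Postn from 0.2% to 1%, so that none of the 22 rose there.

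Because Postn itself differed between the libraries, the precursors were divided at 1% of Postn after the values had been seen. Postn selected the cells, so the values by range are a description. The lower range held 126 untreated and 108 calcitriol cells, and the range at 1% or more held 74 and 29. Within each range the Postn level was similar, with log2 ratios of -0.18 and -0.11, which the cut on Postn itself favours. Ibsp had a log2 ratio of 2.01 in the lower and 2.77 in the higher range, Mmp13 1.66 and 1.99, Thbs1 2.21 and 1.92, and Cd200 1.42 and 2.35. For Spp1 the ratios were 2.27 and 4.59, since untreated cells rich in Postn held only 297 CPM of it, against 4548 CPM in the lower range. Acta2 had ratios of -3.85 and -4.45, and Igf1 -2.41 and -3.39. Mgp had 0.85 and -0.19, and was 2-fold higher in neither range. Agt had 3.71 and -0.69, and Rarres1 had 2.38 and 0.31, with only 5 untreated UMIs of each and 1 and 2 calcitriol UMIs in the higher range. For Aspn they were -1.27 and -0.90, so the fall in the higher range was short of 2-fold. Sulf2 differed by range, at 2.25 and -0.01.

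**Figure D4:**
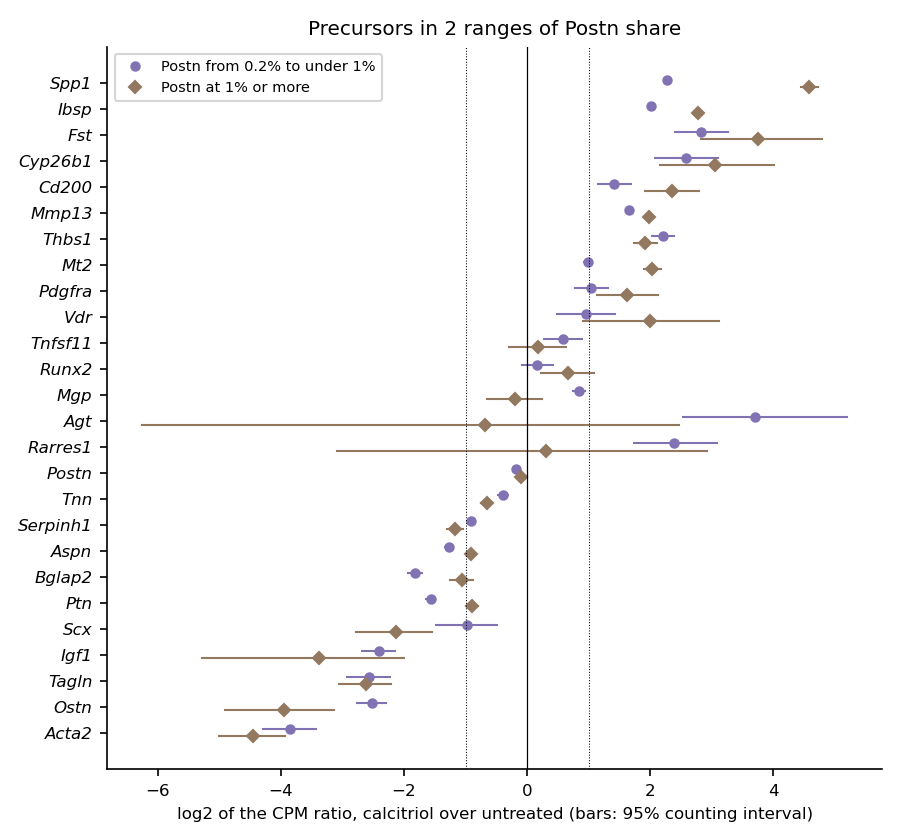
Log2 ratio of CPM, calcitriol over untreated (horizontal axis), of 26 genes in precursors with Postn from 0.2% to under 1% (circles, 126 and 108 cells) and at 1% or more (diamonds, 74 and 29 cells); bars are 95% counting intervals and dotted lines mark 2-fold. Postn, Tnn, Ostn and Runx2 selected the cells; genes from Spp1 to Pdgfra lie to the right of 0 in both ranges, and genes from Serpinh1 to Acta2 to the left.

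The same ratios were set beside those of Bglap-high osteoblasts (Bglap at 0.5% or more, 95 untreated and 61 calcitriol cells) and of fibroblasts with Ly6a and Pdgfra (458 and 835 cells). These sets come from the same 2 libraries and share their differences, so whether a change is particular to the precursors was not tested. The log2 ratio of Ibsp was 2.29 in precursors, 0.78 in osteoblasts and 0.53 in fibroblasts. For Mmp13 the values were 1.80, 0.47 and 0.25. Spp1 was past 2-fold in all 3, with 2.12 (2.10 to 2.14) in osteoblasts, 2.67 (2.63 to 2.71) in fibroblasts and 2.85 (2.82 to 2.89) in precursors. These intervals cover counting error only, and without the richest cell of each library the precursor ratio of Spp1 was 3.01. Klhl33 had 3.25 and 2.05, Cyp26b1 2.73 and 1.00, and Vdr 1.83 and 1.26. Igf1 had -2.96 and -1.79, Spon2 -3.07 and -2.59, and Acta2 -3.81 and -1.29. Grem1 pointed the other way in osteoblasts, where it went from 61.3 to 6.75 CPM, a log2 ratio of -3.18.

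**Figure D5:**
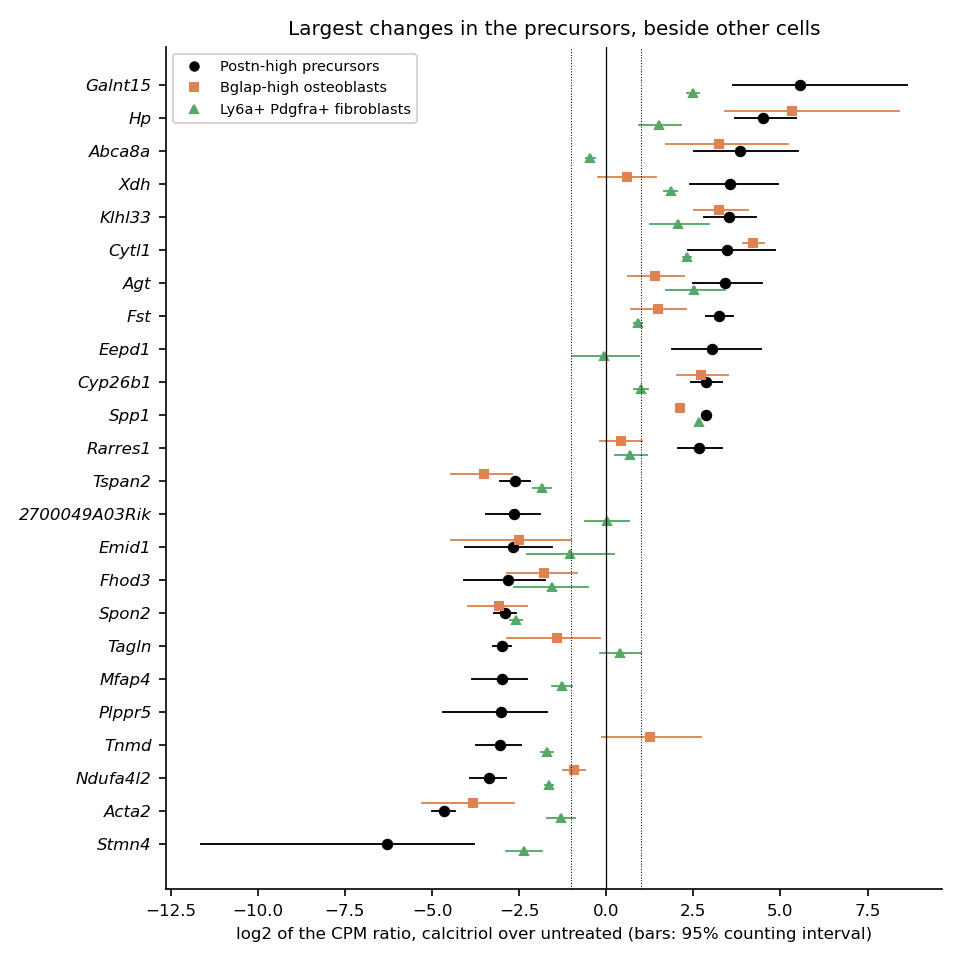
Log2 ratio of CPM, calcitriol over untreated (horizontal axis), of the 12 genes with the largest rise and the 12 with the largest fall in precursors (black circles), beside Bglap-high osteoblasts (orange squares) and fibroblasts with Ly6a and Pdgfra (green triangles); bars are 95% counting intervals, and a gene is drawn for a cell type with at least 20 UMIs and none of the libraries at 0. Acta2 lies left of the 2-fold line in all 3 cell types and Spp1 right of it, while Abca8a and Tagln in fibroblasts lie on the other side of 0 or near it.

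The precursors were set apart from neighbouring cells by genes other than those of the definition, described here without a test because cells were sorted by expression. Beside Bglap-high osteoblasts, they were richer in both libraries in Fndc1, at 326 against 18.5 CPM in the untreated library, in Ptn (pleiotrophin), at 3606 against 265 CPM, in Col12a1, a collagen of periosteum and tendon, at 4337 against 438 CPM, and in the Wnt modulator Sfrp2. They were poorer in the osteocyte and late osteoblast genes Dmp1, Phex, Ifitm5 and Smpd3, with Ifitm5 at 12.4 against 480 CPM. Beside the fibroblasts they were richer in Wnt16, a Wnt ligand of cortical bone, at 182 against 10.4 CPM, in Dlx6, a homeobox gene of osteoblasts, in Wnt5b and in Col13a1. They were poorer in Myoc, Pi16 and Pcolce2, genes of fibroblasts, with Pi16 at 0.908 against 84.1 CPM. Chodl-positive cells with high Postn, 13 and 9 in number, had 53.6 and 189 CPM of Spp1, and 9960 and 55459 CPM of Mgp.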

How the data were processed

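One droplet library per group was deposited as a filtered matrix of UMI counts per gene and barcode. According to their processing notes, the authors made these counts with Cell Ranger 4.0.0 and used Seurat 3.2.2 downstream, and no normalization was applied to the deposited counts. The untreated matrix held 6076 barcodes with 70266983 UMIs and the calcitriol matrix 4562 barcodes with 60392557 UMIs. Counts were read as deposited in Python 3.11.15 with numpy 2.4.6, scipy 1.17.1, pandas 2.3.3 and matplotlib 3.10.9. Coordinates were those of GENCODE M21.

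Barcodes with 200 or more genes were classified by the stated limits, and UMIs were summed over the precursors of each library. Ratios of CPM carry exact conditional binomial 95% intervals, and shares carry Clopper-Pearson intervals. With 1 library per group there is no replicate error and no test, and the spread between mice is not known. A group at 0 was given a floor of 3 counts per library. The code was tested on simulated data. No doublet caller was run, and cells with markers of another type were left out as an alternative. In that alternative a cell was dropped for UMIs of 2 or more endothelial, leukocyte, smooth muscle or erythroid markers (haemoglobin aside), or for over 3 times the median UMIs.

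The members and the 38 gene lists were chosen with earlier results of these data known. Genes were named as follows: the selection genes and given markers, the 12 largest ratios in each direction, up to 4 genes at each end of a list and its most abundant one, 11 vitamin D and osteocyte genes (Vdr, Cyp24a1, Tnfsf11, Tnfrsf11b, Spp1, Enpp1, Fgf23, Sost, Dmp1, Mepe and Phex), the 10 most variable genes, and the 15 genes furthest apart from each neighbouring cell type. Alpl, Cthrc1, Creld2, Col8a2, Col11a2, Ddit4, Fbn1, Fkbp5, Mfap5, Mki67, Prrx1, Rxra, Sox9, Sp7, Tgfbi, Tsc22d3, Twist1 and Vcan were named after their values were seen. The alternatives changed the Postn limit, the gene minimum, the UMI minimum, thinning, weighting, totals and centring. Alternatives with the Bglap limit lifted, with smooth muscle markers not used, within a Postn range and with a Tnn UMI required were added after the data had been seen, as were the barcodes used for background.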

Additional observations from a re-analysis of the deposited data

Results flagged for a closer look

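Among named genes with at least 50 UMIs in both sets of cells, 10 moved past 2-fold in one direction in precursors and past 2-fold in the other direction in Bglap-high osteoblasts, fibroblasts or endothelial barcodes of the same libraries, with counting intervals on opposite sides of 0. With 1 library per group these differences were not tested. Against endothelial barcodes, follistatin (Fst) had a log2 ratio of 3.25 in precursors and -2.04 there, and clusterin (Clu) had 1.72 and -1.53. Both kept these directions where 3 of 4 endothelial markers were required, at -2.29 and -1.58. Tnmd had -3.06 in precursors and 3.09 in endothelial barcodes, and Igf1 had -2.07 and 1.13, but with 3 of 4 markers required the endothelial values were 0.54 and 0.09. Against Bglap-high osteoblasts, Tnfrsf11b had -1.26 in precursors and 1.28, Grem1 had 1.54 and -3.18, and Col9a3 had -1.03 and 1.85. Against fibroblasts, Col2a1, which the selection limited, had -2.24 in precursors and 2.66. Ifitm5 had -1.77 and 2.77, Col9a3 -1.03 and 2.97, and Col11a2 -1.44 and 1.26. A single cell held over 25% of the UMIs in precursors for Col2a1, Tnfrsf11b, Ifitm5, Col9a3 and Clu, at 49.2%, 36.9%, 44.0%, 37.5% and 32.6%.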

How the results depend on the processing

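No paired analysis was possible because each group had 1 library, so that the groups share fewer than 2 replicate numbers. The number of precursors, 200 untreated and 137 calcitriol, was 230 and 180 with Postn at 0.1% or more, 140 and 67 at 0.5% or more, and 109 and 115 without cells carrying markers of another cell type. The counts of 198 genes higher and 350 lower were 99 and 225 after thinning to 5000 UMIs per cell, where 3850 genes could be compared. They were 408 and 562 with a minimum of 20 UMIs, and 74 and 124 with 200. The count of lower genes was 200 after centring on the median, 203 without cells carrying markers of another cell type and 220 with Postn from 0.2% to 1%. Genes higher made up 36.1% of both directions, 59.4% after centring and 26.1% with Postn at 0.5% or more.

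Of 230 named genes, 48 changed sign under at least 1 alternative, 43 of them short of 2-fold to begin with and 5 past it. Of those 5, without cells carrying markers of another cell type Plppr5 had a log2 ratio of 0.63 and Angptl7 of -0.82. With Postn at 0.1% or more it was 0.023 for Col2a1, 1.10 for Ccl2 and 0.78 for Col9a3, which had 0.29 after thinning. The cause of these changes was not tested. Of 87 named genes past 2-fold, 59 stayed past it in the same direction without cells carrying markers of another cell type, but 86 did, with 200 genes higher and 326 lower, when smooth muscle markers were not used to drop cells. The number was 67 with Postn at 0.1% or more, 81 at 0.5% or more, 75 after thinning and 75 after centring. Without the cell richest in each gene, 80 of 86 did so. Depth limits genes with few UMIs: at 0 UMIs a level of up to 0.908 CPM in untreated and 1.22 CPM in calcitriol precursors is allowed.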

Other observations

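Lubricin (Prg4), the lubricating proteoglycan of joint surfaces, stood at 70.6 CPM in untreated and 906 CPM in calcitriol precursors, a log2 ratio of 3.68 (3.49 to 3.88). It was not ranked among the largest rises because 1 cell held 30.6% of its UMIs. Its log2 ratio was 3.44 in Bglap-high osteoblasts and 2.05 in fibroblasts, which held 7469 and 30951 CPM. Haemoglobin-rich barcodes held it in 8.01% of the untreated and 34.4% of the calcitriol library, against 26.5% and 59.1% of precursors. Endothelial barcodes, by 3 of 4 markers, held 8.23 and 46.2 UMIs on average in 21.8% and 47.4% of them, more than the 1.17 and 16.3 UMIs per precursor. The share with 5 or more UMIs was 7% and 20.4% in precursors and 0.104% and 1.59% in haemoglobin-rich barcodes. It was 4.66% and 3.51% in endothelial barcodes, so that few of these held most of the UMIs behind their means. The part of free RNA in the precursors' value was not tested.

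Markers of chondrocytes summed to 1265 CPM in untreated and 2123 CPM in calcitriol precursors, and 13 of 15 had a UMI. Of 9 compared, Prg4 and Cytl1 rose and Col2a1 and Col9a3 fell. Col9a3 had a log2 ratio of -0.09 without the richest cell of each library. The cartilage transcription factor Sox9 had 230 and 270 CPM, and aggrecan (Acan) had 359 and 228 CPM. Few genes of the cell cycle had enough UMIs, and none of 5 S-phase and 3 G2/M genes compared passed 2-fold.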
